A study of Mus musculus with 11 samples.

Results

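Endothelial cells of tumour-infiltrated bone marrow were compared with those of healthy bone marrow over all genes measured. The comparison took 5 of the 11 libraries of the study, the 3 met libraries and both control libraries. Met libraries came from BALB/c mice bearing 4T1.2-RFP cells, a mammary carcinoma line of the same strain that carries a red fluorescent protein and spreads to bone, and from marrow areas microdissected because they held red fluorescent tumour cells. Control libraries came from age-matched, tumour-free BALB/c mice. The other 6 libraries, called non-met, came from tumour-free marrow beside the infiltrated areas of the same burdened mice and entered the estimate of the spread between libraries. In all groups the marrow was digested with collagenase, blood cells carrying CD45 or Ter-119 were gated out, and cells with high CD31 and high endomucin (EMCN) were sorted in small numbers for a low-input, full-length RNA kit. RNA came from pools of mice, and the 11 libraries from 6 pools. The 6 non-met libraries came from 4 burdened pools, since non-met 1 and 5 shared pool 1 and non-met 2 and 6 shared pool 2, so they are not 6 independent replicates. The met libraries 1, 2 and 3 came from burdened pools 2, 3 and 4, which non-met libraries shared, and the controls each had a pool of their own. The infiltrated areas differed from healthy marrow both in holding tumour and in coming from burdened animals, which this comparison cannot tell apart.

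In healthy bone, vessels with high CD31 and EMCN, known as type H capillaries, lie near the growth plate and run beside bone-forming cells. In the images of the study, vessels within metastases also had high CD31 and EMCN, but without the bone-forming progenitors and pericytes of type H vessels. The paper proposes that the remodelled network mixes type H and sinusoidal vessels. Whether the sort took the same vessels in met and control was not tested. Many capillaries rest on a basement membrane, a sheet of type IV collagen, laminins, nidogens and the proteoglycan perlecan to which endothelial cells contribute, whereas that of marrow sinusoids is discontinuous or absent. Marrow endothelium also displays adhesion molecules and secretes factors such as *Cxcl12* and *Kitl* that hold and feed blood stem cells, and it answers interferons by making antigen-presenting molecules, guanylate-binding proteins and chemokines that draw T cells.

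The controls held 19539761 and 5029771 reads assigned to genes, and the met libraries 2547520 to 8771860. Levels are given in CPM, the count of a gene relative to the total of its library, after trimmed-mean (TMM) scaling, and 3 reads, taken as the floor, amounted to 0.147 and 0.531 CPM in the controls and 0.344 to 1.32 CPM in the met libraries. Mitochondrially encoded genes took 5.62% ± 0.568 (SD, n = 2) of the counts in the controls and 6.52% ± 2.52 (SD, n = 3) in met, with a P of 0.7 in an exact two-sided permutation test over 10 splits, which cannot go below 0.1. All 24 general endothelial genes listed were detected, and their summed level was 15003 to 22243 CPM in the controls and 23260 to 30085 CPM in the met libraries. The keratin genes *Krt8*, *Krt18* and *Krt19*, markers of mammary tumour cells, summed to 0.819 and 1.79 CPM before scaling in the controls and to 17.7, 65.5 and 9.69 in met 1, 2 and 3, with no overlap. The non-met libraries fell on both sides, 2 below and 4 above 5 CPM. Within the 5 libraries compared, these levels and the groups cannot be told apart.

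Libraries sorted from infiltrated marrow held more RNA for type IV and type XVIII collagen, vimentin and the surface proteins encoded by *Mcam*, *Cd34* and *Slco2a1*, and less for the selenium carrier *Selenop* and the chemokine *Cxcl12*. These genes were called by voomLmFit and by limma-trend. Of 11948 genes tested with voomLmFit of edgeR and limma, which was the method of the study, 143 (1.2%) passed a Benjamini-Hochberg adjusted P of 0.05, 82 (0.686%) higher and 61 (0.511%) lower in met. A limma-trend test on log2 CPM, which gives every library of a gene equal weight, called 9 genes (0.0753%), all among the 143. The edgeR quasi-likelihood test called 10 (0.0837%), of which 9 were among the 143, the other being *Cxadr*. DESeq2 called 228 (1.91%), of which 25 were shared. The 7 genes called by all 4 tests were *Col4a1*, *Col4a2*, *Col18a1*, *Vim*, *Mcam*, *Slco2a1* and *Selenop*. Among the 143, 116 had met libraries all above (67) or all below (49) both controls, against 8.43% of all tested genes above and 12.3% below, or 15.7% and 8.37% of the 4466 genes that averaged 50 CPM or more. Of the 82 higher calls 68 averaged 400 CPM or more in the 5 libraries, as did 31 of the 61 lower calls. Shares of calls over all tested genes, given below, are not matched for level. In 67 of the 143 genes, over 90% of the weight that voomLmFit gave the controls lay in 1 library, against 179 of the 11948 tested. The heavier control held a median of 87.4% of that weight in the called genes and 61.6% in all genes tested. The fitted change had the other sign than the difference in mean log2 CPM for *Kdr*, *Myh9* and *Aplnr*, all with overlapping libraries. With a term for the 2 sets of libraries that the keratins divide, an alternative chosen after the data were seen, 4 genes passed, *Cxcl12*, *Junb* and *Il6st* lower and *Insr* higher. Under that term the voomLmFit log2 change was 0.68 for *Col4a1* and 0.71 for *Col4a2*, against 1.81 and 1.21 in the full fit. For *Col18a1*, *Vim*, *Mcam*, *Slco2a1* and *Selenop* it was 4.45, 2.11, 2.18, 2.31 and -0.77, against 4.27, 2.13, 2.65, 2.79 and -0.87. With libraries of 1 pool and group summed, voomLmFit called 55 genes, of which 53 were among the 143, and with the pool as a random block 143, of which 141 were. The split of 82 higher and 61 lower calls was 63 and 73 with library size scaling. Leaving out 1 library gave between 36 calls (without met 3, 29 higher and 7 lower) and 293 (without control 2, 117 higher and 176 lower). The count was 69 without control 1 (19 higher and 50 lower), 91 without met 2 and 100 without met 1. Limma-trend values therefore stand beside those of voomLmFit below, and log2 changes are met minus control with their standard error.

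**Figure D1:**
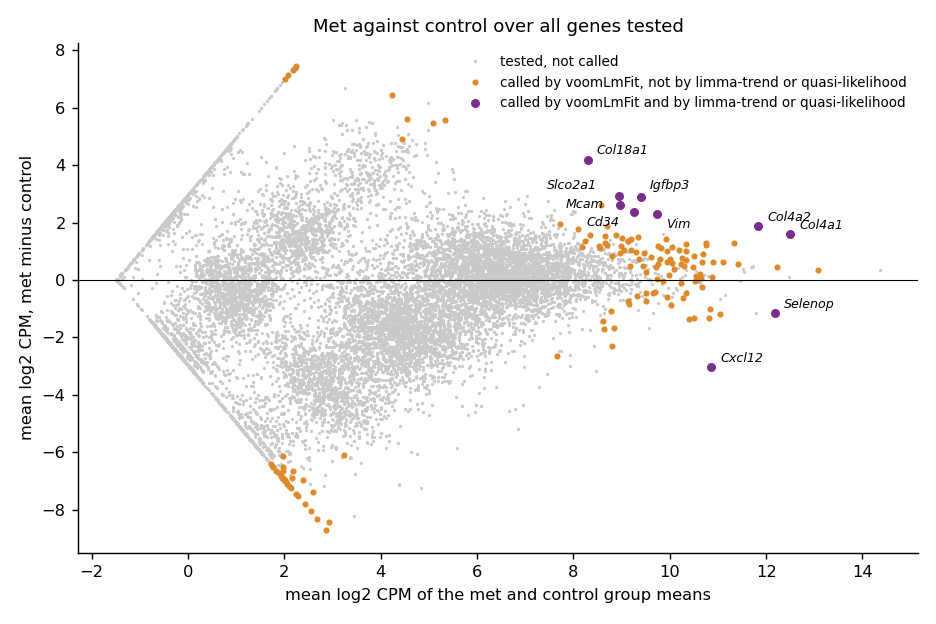
Difference in mean log2 CPM, met minus control (y axis), of each of the 11948 tested genes against the mean of the 2 group means (x axis, log2 CPM after TMM scaling). Colour marks the 143 genes called by voomLmFit, with a darker colour and names for those called also by limma-trend or quasi-likelihood, and the diagonal edges hold genes without reads in 1 group.

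The type IV collagen chains, which form the network of the basement membrane, rose in infiltrated marrow. *Col4a1* stood at 5013 and 2220.4 CPM in the controls and at 8295, 9929.7 and 12265 CPM in met. *Col4a2* was at 3044 and 1190.2 CPM in the controls and at 5139, 7380.3 and 9002 CPM in met. For both chains each met library exceeded both controls, control 2 was the lowest of the 5, and mean CPM was 2.81-fold higher for *Col4a1* and 3.39-fold higher for *Col4a2*. The log2 change of *Col4a1* was 1.81 ± 0.36 (adjusted P = 0.00595) by voomLmFit and 1.59 ± 0.24 (adjusted P = 0.000976) by limma-trend. For *Col4a2* it was 1.21 ± 0.18 (adjusted P = 0.000237) and 1.88 ± 0.27 (adjusted P = 0.000824). The α1 and α2 chains twist into 1 molecule, and their genes lie head to head on chromosome 8 (chr8:11198423-11312889 and chr8:11312805-11449287, RefSeq annotation of GRCm38.p6). In the RefSeq promoter entries the starts lie at 11312826 and 11312805, 21 bases apart, so the *Col4a1* start there is not the end of its gene span. The gene spans overlap and the use of strand in the counting is not given, so how reads within the overlap were counted is not known.

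*Col18a1* (chr10:77052178-77166530), the precursor of the angiogenesis inhibitor endostatin, showed the widest gap of the basement membrane genes called. It stood at 167 and 32.0 CPM in the controls and at 1284, 1202 and 1546 CPM in met, a mean 13.5-fold higher. The met libraries lay close together and far from both controls, and the change was 4.27 ± 1.07 (adjusted P = 0.0487) by voomLmFit and 4.18 ± 0.66 (adjusted P = 0.0022) by limma-trend. In all, 5 of the 16 basement membrane genes (31.3%, against 0.686% of all tested genes) rose, none fell, and all met libraries were above both controls in 11 of the 16 (68.8%, against 8.43%, or 15.7% of genes averaging 50 CPM or more). The median voomLmFit change of the 16 was 0.80, against -0.09 over all tested genes. The remaining calls were *Hspg2*, encoding perlecan, and *Sparc*, a collagen-binding matrix protein, and neither passed limma-trend (adjusted P = 0.416 and 0.977). *Nid2*, a nidogen that links laminin to collagen IV, was at 225 and 58.7 CPM in the controls and 527 to 698 CPM in met, and *Col15a1*, a collagen of the outer basement membrane, at 167 and 72.7 against 508 to 754 CPM, and neither passed (adjusted P = 0.0927 and 0.0532 by voomLmFit). The laminin genes *Lama4*, *Lamb1* and *Lamc1* were above both controls in every met library at 1.82- to 2.13-fold the mean CPM, while *Lamb2* and *Nid1* overlapped. In the 6 non-met libraries *Col4a1* ranged from 4226 to 8332 CPM and *Col18a1* from 209.9 to 877 CPM, below every met library for *Col18a1*. Without control 2 the voomLmFit changes were 0.68 (adjusted P = 0.901) for *Col4a1* and 0.76 (adjusted P = 0.897) for *Col4a2*. Without control 1 *Col4a2* stood at 2.06 (adjusted P = 0.645) and *Col18a1* at 5.60 (adjusted P = 0.379), and neither was called, while *Col4a1* kept its call at 1.85 (adjusted P = 5.88e-12). The met libraries mattered less for the size, with *Col4a1* at 1.47 without met 1 and 1.65 without met 2, *Col4a2* at 1.22 without met 2 and 1.27 without met 3, and *Col18a1* at 4.29 without met 1 and 3.91 without met 3, none of them called. *Hspg2* was not called without control 1 (1.96) or control 2 (0.81), and *Sparc*, at 0.06 in the full fit, ranged from 0.06 to 0.98 with no call when any 1 library was left out.

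**Figure D2:**
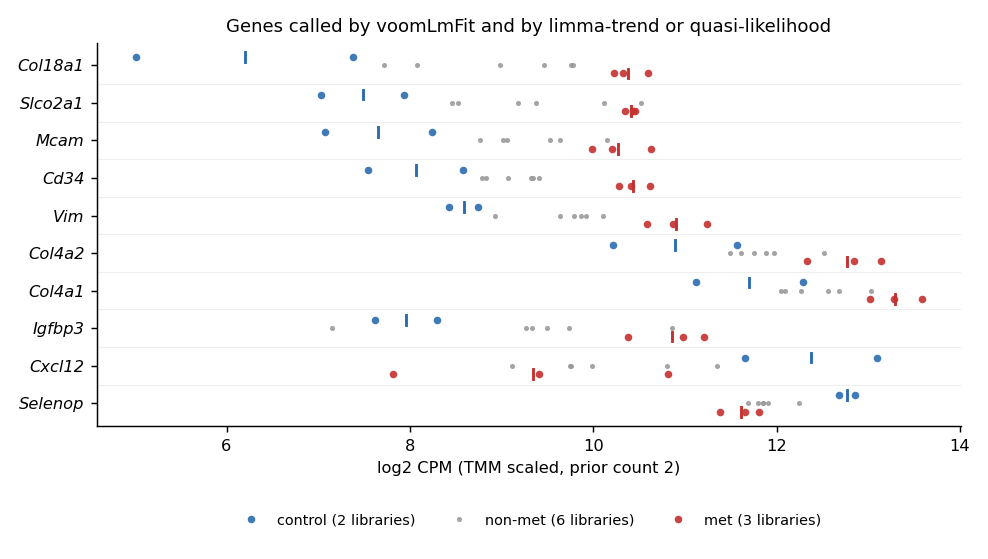
Log2 CPM (x axis, TMM scaled, prior count 2) of the genes called by voomLmFit and by limma-trend or quasi-likelihood, with 1 point per control, met and non-met library and a bar at the mean of the control and met groups. For *Col4a1*, *Col4a2*, *Col18a1*, *Vim*, *Mcam*, *Slco2a1*, *Cd34* and *Igfbp3* all 3 met points lie above both control points, and for *Selenop* and *Cxcl12* all lie below.

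*Vim*, *Slco2a1*, *Mcam* and *Cd34* also rose. *Vim* (chr2:13574311-13582826), the intermediate filament protein vimentin, stood at 344 and 427 CPM in the controls and 2422, 1869 and 1539 CPM in met, with a change of 2.13 ± 0.18 (adjusted P = 2.2e-08) by voomLmFit and 2.31 ± 0.38 (adjusted P = 0.00274) by limma-trend. *Slco2a1*, a carrier that takes up prostaglandins, was at 245 and 131 CPM against 1401, 1302 and 1378 CPM (2.92 ± 0.53, adjusted P = 0.0126 by limma-trend). *Mcam*, the adhesion molecule CD146, was at 303 and 134 CPM against 1179.7, 1011 and 1588 CPM (2.62 ± 0.48, adjusted P = 0.0142 by limma-trend). For these genes the lowest met library was over the highest control by a wide margin, and mean CPM was 5.03-fold, 7.25-fold and 5.76-fold higher. *Cd34*, a sialomucin of capillaries and sprouting tips, rose from 383 and 186 CPM to 1244, 1362 and 1575 CPM (2.37 ± 0.45, adjusted P = 0.0158 by limma-trend). The highest non-met library for *Cd34* was at 679 CPM, below all met libraries, whereas for *Slco2a1* a non-met library reached 1466 CPM. Without control 1 the voomLmFit calls were lost for *Vim* (1.90, adjusted P = 0.165), *Slco2a1* (3.44, adjusted P = 0.131), *Mcam* (3.53, adjusted P = 0.286) and *Cd34* (3.11, adjusted P = 0.068). *Vim* was the 1 gene that rose of 19 tested for the actin and vimentin cytoskeleton (5.26%, against 0.686% of all tested genes), whose median change was -0.09. Called lower were 2 (10.5%, against 0.511%), *Myh9*, a non-muscle myosin, and *Actb*, a cytoplasmic actin, with overlapping libraries (adjusted P = 1 for both by limma-trend). The call of *Actb* was lost without met 3 (0.043).

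*Igfbp3*, *Stc1* and *Gng11* were also called higher. *Igfbp3*, which binds insulin-like growth factors, stood at 196 and 313 CPM in the controls and at 2362, 2023 and 1329.6 CPM in met (2.65 ± 0.53, adjusted P = 0.00639 by voomLmFit, and adjusted P = 0.0546 by limma-trend). *Stc1*, the glycoprotein hormone stanniocalcin, was at 11.1 and 0 CPM in the controls and at 289, 161 and 118 CPM in met (adjusted P = 0.012 by voomLmFit and 0.0508 by limma-trend). *Gng11*, a subunit of heterotrimeric G proteins, was at 215 and 213 CPM against 701, 741 and 958 CPM (2.04 ± 0.30, adjusted P = 0.000176, and 0.373 by limma-trend). None of the 3 overlapped between groups, but non-met libraries spanned both levels of *Igfbp3* (142 to 1857 CPM) and lay from 127 to 325 CPM for *Stc1*. *Stc1* was above the controls in every burdened library. Of 22 tip cell and sprouting genes, 3 rose (*Cd34*, *Igfbp3* and *Mcam*, 13.6%, against 0.686% of all tested genes) and 4 were called lower (*Kdr*, *Plxnd1*, *Nrp1* and *Aplnr*, 18.2%, against 0.511%), with a median change of -0.17 by voomLmFit and 0.12 by limma-trend. *Nrp1*, a co-receptor for semaphorins and VEGF, was at 754 and 686 CPM in the controls and 551, 483 and 311 CPM in met (adjusted P = 0.011, and 1 by limma-trend). The other 3 had overlapping libraries and an adjusted P of 1 by limma-trend, and for *Kdr* and *Aplnr* the difference in mean log2 CPM had the opposite sign. The call of *Nrp1* was lost without control 1 or any 1 met library (-0.58 to -1.13), and that of *Plxnd1* without control 1 (0.22) or met 3 (-0.18). Calls were lost without control 1 for *Igfbp3* (2.14, adjusted P = 0.721), *Gng11* (2.11) and *Stc1* (10.72), and for *Stc1* also without control 2 (3.76).

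The sort markers themselves differed. *Pecam1*, which encodes CD31, was at 1247 and 972 CPM in the controls and 2297, 2595 and 3163 CPM in met, a mean 2.42-fold higher with no overlap (1.34 ± 0.01, adjusted P = 7.72e-27 by voomLmFit, and 1.27 ± 0.29, adjusted P = 0.0984 by limma-trend). *Emcn* was at 695 and 509.6 CPM against 674, 1215 and 1326 CPM, and the groups overlapped (adjusted P = 1.65e-05 by voomLmFit, and 1 by limma-trend). Of 24 general endothelial genes 7 rose (29.2%, against 0.686% of all tested genes) and 1 was called lower (4.17%, against 0.511%). The lower call was *Kdr*, whose libraries overlapped and whose mean CPM was 1.02-fold higher in met. All met libraries were above both controls in 9 of the 24 (37.5%, against 8.43%, or 15.7% of genes averaging 50 CPM or more). *Tie1*, an endothelial receptor tyrosine kinase, rose from 823 and 580.4 CPM to 957, 1469 and 1949.5 CPM, and *Ptprb*, a phosphatase of endothelial junctions, from 1199 and 969 CPM to 1701, 1721 and 2477 CPM. Neither passed limma-trend (adjusted P = 0.869 and 0.891). In bulk libraries a higher share of endothelial cells in a sort and more RNA of a gene per endothelial cell cannot be told apart. Without control 1 the calls of *Pecam1* (1.73), *Emcn* (1.38) and *Ptprb* (1.40) were lost, and without met 3 those of *Emcn* (0.62) and *Tie1* (0.73), while *Ptprb* stood at 0.52.

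Genes that anchor cells to matrix and cut it were higher in part. *Itgb1*, the common β subunit of collagen and laminin receptors, was the 1 call among 12 integrin genes (8.33%, against 0.686% of all tested genes called higher). It stood at 896 and 791 CPM in the controls and 2190.3, 1886 and 1912 CPM in met (adjusted P = 4.11e-15 by voomLmFit, and 0.285 by limma-trend). Of 17 proteases and inhibitors 3 rose (17.6%, against 0.686% of all tested genes), none fell and 8 had every met library above both controls (47.1%, against 8.43%). None of the 3 passed limma-trend. *Adam15*, a membrane metalloprotease, was at 419 and 393 CPM against 704, 799.6 and 1077 CPM, and *Adamts1*, a secreted protease that cleaves proteoglycans, at 557 and 459 CPM against 1233, 846 and 883 CPM (adjusted P = 3.76e-05 and 0.000847 by voomLmFit, and 0.978 and 0.977 by limma-trend). *Mmp14*, a membrane collagenase, was at 360.3 and 217 CPM against 551 to 744 CPM and did not pass (adjusted P = 0.0572). Of 16 genes for collagen folding and crosslinking none rose (against 0.686% of all tested genes) and 1 fell (6.25%, against 0.511%). This was *Loxl1*, a crosslinking enzyme, which went from 83.2 and 108 CPM to 0 reads in each met library, at least 128-fold lower against the floor (adjusted P = 0.00452 by voomLmFit, and 0.471 by limma-trend). Lost calls were those of *Itgb1* (1.33), *Adam15* (1.38) and *Adamts1* (0.99) without control 1, of *Adam15* (0.89) and *Adamts1* (0.74) without met 3, and of *Loxl1* without met 2 or met 3.

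*Selenop* (chr15:3270767-3280510), the secreted selenium carrier, was lower by all 4 tests. It stood at 7437 and 6553 CPM in the controls and at 3217, 2661 and 3590.2 CPM in met, a mean 2.22-fold lower. All 3 met libraries lay below both controls, and the change was -0.87 ± 0.06 (adjusted P = 1.31e-10) by voomLmFit and -1.16 ± 0.16 (adjusted P = 0.000665) by limma-trend. Non-met libraries ranged from 3293 to 4835 CPM, also below both controls. *Igfbp4*, another binding protein of insulin-like growth factors, fell from 2324 and 2891 CPM to 1242, 1207 and 1448 CPM (-1.03 ± 0.09, adjusted P = 3.62e-08, and 0.379 by limma-trend). It was named after its values were seen. Leaving out control 1 or control 2 ended the voomLmFit call of *Selenop*, at -1.25 (adjusted P = 0.0644) and -1.10 (adjusted P = 0.849), and *Igfbp4* stood at -0.67 without control 2.

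*Stab2*, a scavenger receptor of sinusoidal endothelium that clears hyaluronan, fell. It stood at 3364 and 2371 CPM in the controls and at 935, 1184 and 1331 CPM in met, 2.49-fold lower in mean CPM with no overlap (-0.94 ± 0.15, adjusted P = 0.000571 by voomLmFit, and -1.31, adjusted P = 0.0778 by limma-trend). *Vcam1*, the adhesion molecule that retains blood progenitors, was at 874 and 1267 CPM against 105, 83.8 and 184 CPM, and *Mrc1*, a mannose receptor, at 1526 and 929 CPM against 306, 617 and 825 CPM. Both had all met libraries below the controls and did not pass (adjusted P = 0.165 and 0.0694 by voomLmFit). *Vcam1* in the non-met libraries ran from 4.98 to 302 CPM, under both controls as well. Of 16 sinusoidal genes 3 rose (18.8%, against 0.686% of all tested genes) and 2 were called lower (12.5%, against 0.511%). Those that rose were *Ctsl*, *Adamts5* and *Ephb4*, and the libraries of *Ctsl* and *Adamts5* overlapped. Of the 16, 1 had all met libraries above (6.25%, against 8.43% of all tested genes) and 5 had all below (31.3%, against 12.3%), with a median of -0.24. None of the 5 calls passed limma-trend. The other lower call, *Stab1*, a related scavenger receptor, had overlapping libraries (adjusted P = 1 by limma-trend), and its call was lost without control 1 (0.099) or met 3 (-0.035). The call of *Stab2* was lost without met 2 (-1.03) or met 3 (-1.10).

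*Cxcl12* (chr6:117168535-117181368), the chemokine that retains blood stem cells in marrow, was beside *Selenop* the other gene lower by voomLmFit and limma-trend. It was at 3224 and 8721 CPM in the controls and at 1801, 225 and 679 CPM in met, 6.62-fold lower in mean CPM. The groups did not overlap, although met 1 was well above the other met libraries, and the change was -4.07 ± 0.35 (adjusted P = 2.16e-08) by voomLmFit and -3.03 ± 0.57 (adjusted P = 0.0167) by limma-trend. Of 14 niche and angiocrine factors tested, meaning secreted signals of endothelium to its surroundings, 2 fell (14.3%, against 0.511% of all tested genes), none rose and 8 had all met libraries below both controls (57.1%, against 12.3%). The median change of the 14 was -3.46, or -3.10 with genes at the floor set to their bound. *Bmp4*, a bone-inducing growth factor, fell from 83.9 and 72.4 CPM to 0, 0 and 11.4 CPM (adjusted P = 0.0411, and 0.743 by limma-trend). *Csf1*, the macrophage growth factor, was at 108 and 83.0 CPM against 9.1 to 19.2 CPM, and *Pdgfb*, which recruits pericytes, at 395 and 267 CPM against 74.1 to 228 CPM, and neither passed. *Kitl*, the stem cell factor, was at 151 and 521 CPM against 366, 38.1 and 29.7 CPM and overlapped. *Cxcl12* stood at -2.58 without control 2 and kept its call, and *Bmp4* was not called when control 1 or any met library was left out (-6.81 to -8.92).

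*Lepr*, *Col1a2* and *Pdgfrb*, genes of stromal cells and pericytes, stood higher in the controls, and none passed. *Lepr*, which marks the marrow stromal cells that make much *Cxcl12*, was at 246 and 979 CPM in the controls and 148, 52.5 and 86.3 CPM in met. *Col1a2*, a chain of bone collagen, was at 269 and 490.3 CPM against 0.881, 0.758 and 184 CPM, and *Pdgfrb*, a pericyte receptor, at 155 and 285 CPM against 116, 81.5 and 62.8 CPM. The controls were higher in each of these genes, and control 2 was the highest for *Cxcl12* as for *Lepr*. The summed level of the 17 stromal and osteolineage genes was 1595 to 2683 CPM in the controls and 627 to 1882 CPM in met, overlapping, with 3 of 16 tested genes (18.8%, against 12.3% of all tested genes) lower in every met library, none higher in every met library and none called. *Col1a1* did not separate the groups (57.8 and 69.7 CPM against 35.0 to 77.9 CPM). The part of stromal RNA in the lower *Cxcl12* was not tested.

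Interferon-gamma response genes were above the controls in most cases. All met libraries exceeded both controls in 16 of the 23 tested (69.6%). That share was 8.43% over all tested genes, or 15.7% over those averaging 50 CPM or more. None had all met below, against 12.3%, and the median change was 1.62. Of the 23, 3 were called higher by voomLmFit, against 0.686% of all tested genes, and none passed limma-trend. *Gbp4*, a guanylate-binding protein of cell-autonomous defence, rose from 159 and 151 CPM to 861, 1149 and 833 CPM (2.52 ± 0.41, adjusted P = 0.000571, and 0.137 by limma-trend). *Iigp1*, an immunity-related GTPase, rose from 158 and 225 CPM to 567, 736 and 406 CPM (1.55 ± 0.70 and adjusted P = 0.977 by limma-trend, and adjusted P = 0.0217 by voomLmFit). *Cxcl11*, a ligand of CXCR3, a chemokine receptor of T cells, had 0 reads in both controls and stood at 111, 88.5 and 24.4 CPM in met, at least 220-fold higher against a floor of 3 reads per control library (adjusted P = 0.0217 by voomLmFit and 0.513 by limma-trend). Guanylate-binding proteins and immunity-related GTPases form families of near copies, so that reads could be split among members.

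Other ligands of the same receptor went along unevenly. *Cxcl10* was at 9.92 and 12.9 CPM in the controls and 162, 131 and 228 CPM in met, a mean 15.2-fold higher, and did not pass (3.94 ± 1.64, adjusted P = 0.25 by voomLmFit, and 1 by limma-trend). Every met library exceeded the highest non-met library (12.7 CPM), and the same held for *Cxcl11* (1.81 CPM). *Cxcl9* was at 495 and 310.0 CPM against 598, 623 and 239 CPM and overlapped. *Gbp2*, at 50.7 and 80.2 CPM against 376, 339.8 and 187 CPM, and *Irf1*, a transcription factor induced by interferon-gamma, at 168 and 129 CPM against 318, 292 and 267 CPM, also had all met libraries above without passing (adjusted P = 0.145 and 0.41). Without control 1 the calls of *Gbp4* (2.59), *Iigp1* (1.16) and *Cxcl11* (9.18) were lost, and without met 2 those of *Iigp1* (1.29) and *Cxcl11* (9.20).

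Promoters of genes in this group that were higher in every met library are shown because they hold the short element through which interferon-activated factors act. Genes with a promoter entry that held this element and were higher in every met library numbered 9. Of these, 5 were picked after their values were seen, a chemokine, guanylate-binding proteins and immunity-related GTPases. The stretches are from RefSeq for GRCm38.p6, read 5′ to 3′ on the strand of the gene. Capitals mark the most 5′ match of the interferon-stimulated response element core, searched as GAAA, any 2 bases and GAAA. The search covered both strands within 250 bases before the annotated start. The *Gbp3* stretch holds 2 overlapping matches. They come from chr5:92349071-92349124 (minus strand) for *Cxcl10*, chr3:142620582-142620635 (plus) for *Gbp2*, chr3:142559977-142560030 (plus) for *Gbp3*, chr11:58199500-58199553 (plus) for *Igtp* and chr11:48992292-48992345 (minus) for *Tgtp1*.
Cxcl10: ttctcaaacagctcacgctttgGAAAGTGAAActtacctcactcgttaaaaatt
Gbp2: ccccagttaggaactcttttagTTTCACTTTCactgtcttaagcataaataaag
Gbp3: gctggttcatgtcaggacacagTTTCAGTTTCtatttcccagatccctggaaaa
Igtp: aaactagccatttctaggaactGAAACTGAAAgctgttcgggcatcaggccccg
Tgtp1: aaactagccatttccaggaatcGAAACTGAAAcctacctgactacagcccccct

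The element was present in 12 of the 16 interferon-gamma genes with a promoter entry, of 24 listed. It was present in 3.46% of all 27025 genes with a promoter entry, in 9 of 23 type I interferon genes and in 0 of 12 basement membrane genes. The gamma-activated site, searched as TTCNNNGAA, was present in 7 of the 16 and in 8.13% of all genes. A match describes these letters only. *Gbp3* stood at 38.6 and 0 CPM in the controls and 670.5, 151 and 194 CPM in met, *Igtp* at 27.7 and 62.6 CPM against 224, 74.9 and 159.8 CPM, and *Tgtp1*, another immunity-related GTPase, at 109 and 115 CPM against 491, 298 and 273 CPM. All 3 were higher in each met library than in either control, and none passed (adjusted P = 0.0704, 0.55 and 0.25 by voomLmFit).

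**Figure D3:**
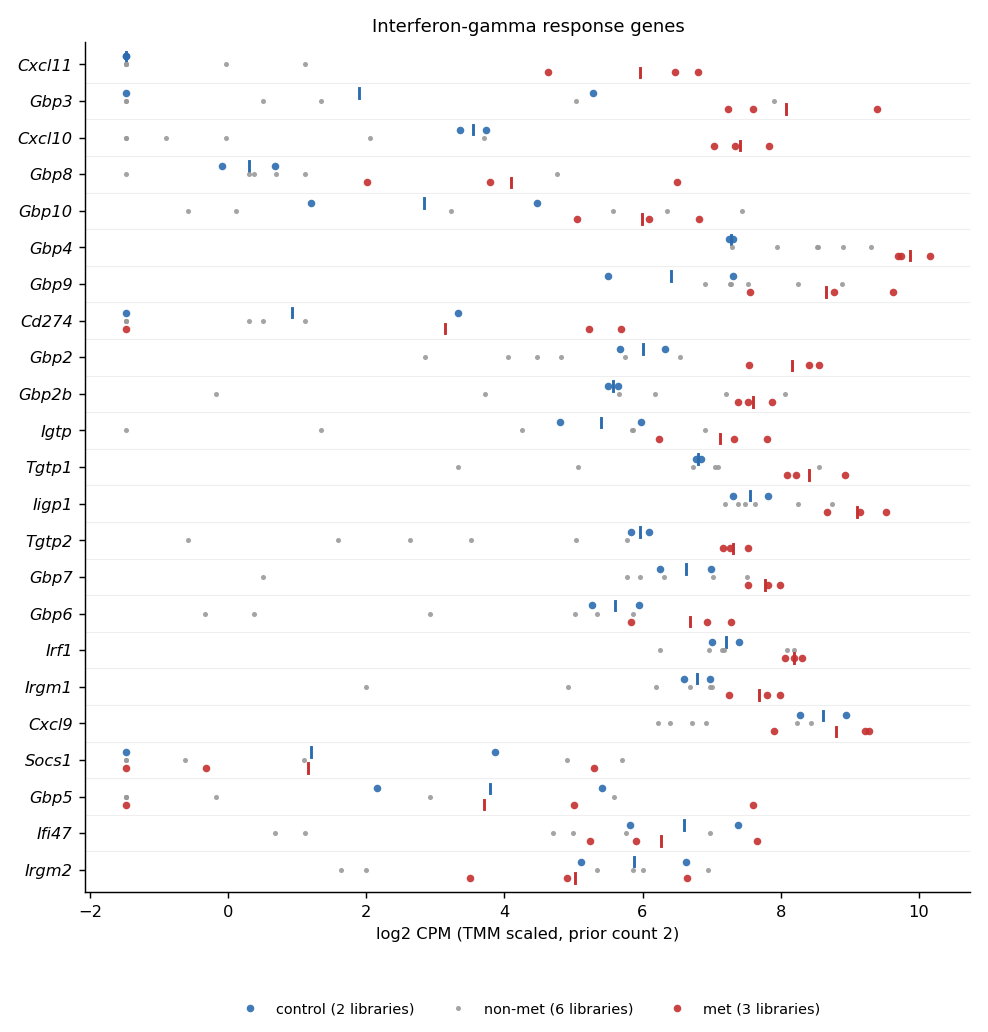
Log2 CPM (x axis, TMM scaled, prior count 2) of the 23 tested interferon-gamma response genes, with 1 point per control, met and non-met library and a bar at the mean of the control and met groups. The met points of *Gbp4*, *Cxcl10* and *Cxcl11* lie above all control and non-met points, and those of *Cxcl9* overlap with the controls.

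Antigen presentation genes were called in part. Of 19 genes of the MHC class I pathway 4 rose (21.1%, against 0.686% of all tested genes), none fell and 8 had all met libraries above both controls (42.1%, against 8.43%), with a median change of 0.85. None of the 4 passed limma-trend. *H2-D1*, a class I heavy chain, was at 785 and 933 CPM in the controls and 1114, 1027 and 1923 CPM in met, a mean 1.58-fold higher (1.12 ± 0.09, adjusted P = 1.11e-08 by voomLmFit, and 1 by limma-trend). *H2-K1* and *B2m* were called by voomLmFit although their libraries overlapped, with mean CPM 1.16- and 1.14-fold higher (adjusted P = 1 for both by limma-trend). *Tap1*, which carries peptides to class I molecules, was at 58.8 and 22.6 CPM against 222, 241 and 278 CPM and did not pass (adjusted P = 0.185). Class I heavy chain genes are near copies of each other, so their counts may share reads. None of 7 class II genes passed, and *Cd74*, the class II chaperone, was at 17.6 and 36.4 CPM against 132, 171 and 287 CPM, and *H2-Ab1* at 2.10 and 0 CPM against 178, 31.6 and 159 CPM. The 9 B cell genes, a cell type that also makes class II, summed to 12.2 and 17.0 CPM in the controls and 96.9, 0 and 8.95 CPM in met 1, 2 and 3, and their part was not tested. Of 29 type I interferon genes, *Ifitm3*, which blocks virus entry, was the 1 that rose (3.45%, against 0.686% of all tested genes). It went from 273 in both controls to 605, 599 and 699 CPM (1.28 ± 0.23, adjusted P = 0.00204, and 0.956 by limma-trend). All met libraries were above both controls in 9 of the 29 (31.0%, against 8.43%). Calls were lost without control 1 for *H2-D1* (0.98), *H2-K1* (0.24) and *Ifitm3* (1.33), without met 2 for *H2-K1* (0.63), and without met 3 for *H2-D1* (0.41), *H2-K1* (0.54), *B2m* (0.34) and *Ifitm3* (1.14), and *B2m* stood at 0.40 without control 1.

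Immediate early genes, whose products are transcription factors and feedback regulators made within minutes of a stimulus, fell in part. Of 22 tested, 7 fell (31.8%, against 0.511% of all tested genes), none rose, and 12 had all met libraries below both controls (54.5%, against 12.3%), with a median change of -1.22. None of the 7 passed limma-trend. *Junb*, a subunit of the AP-1 factor, was at 2116 and 2245 CPM in the controls and at 952, 669 and 952 CPM in met (-1.33 ± 0.16, adjusted P = 6.48e-06 by voomLmFit, and -1.36 ± 0.28, adjusted P = 0.0503 by limma-trend). *Fosb* was at 1051 and 928 CPM against 194, 147 and 287 CPM, 4.73-fold lower in mean CPM (-2.28 ± 0.43, adjusted P = 0.00413, and 0.285 by limma-trend). For both AP-1 subunits the met libraries lay well under the controls.

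*Fos* fell from 3788 and 2681 CPM to 2317, 995 and 1186 CPM and *Jun* from 2415 and 2202 CPM to 1674, 609 and 743 CPM, with met 1 the highest met library for each (adjusted P = 0.0778 and 0.373 by limma-trend). *Egr1*, a zinc finger factor, fell from 909 and 745 CPM to 242, 345 and 201 CPM, and *Zfp36*, which speeds decay of inflammatory messages, from 725 and 692 CPM to 211, 157 and 319 CPM (adjusted P = 0.876 and 0.437 by limma-trend). *Jund* was the remaining call (adjusted P = 1 by limma-trend). *Ier3*, a survival gene of the same class, went the other way, with 59.3 and 28.1 CPM in the controls and 180.2, 93.1 and 204 CPM in met, and did not pass (adjusted P = 0.53). The non-met libraries lay below both controls in 6 of 6 for *Fosb* (227 to 795 CPM), *Jun* (718 to 1554 CPM) and *Egr1* (143 to 458 CPM). They did so in 5 of 6 for *Zfp36*, in 4 of 6 for *Junb* (1412 to 2341 CPM) and *Jund* and in 2 of 6 for *Fos* (2188 to 3238 CPM). These genes are known to respond to tissue digestion and sorting, and met and non-met marrow was also microdissected, a step not given for the control bones. The part of handling in the lower levels was not tested. *Jun* and *Junb* were called whichever library was left out. The other calls depended on single libraries, with *Fos* lost without control 2 (-1.64), met 1 (-1.38) or met 3 (-1.28), and *Fosb* without met 2 (-2.02) or met 3 (-2.68). *Egr1* was lost without control 1 (-1.56), met 2 (-2.10) or met 3 (-1.58), *Jund* without met 3 (-0.58), and *Zfp36* without control 1 or any 1 met library (-1.33 to -2.04).

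**Figure D4:**
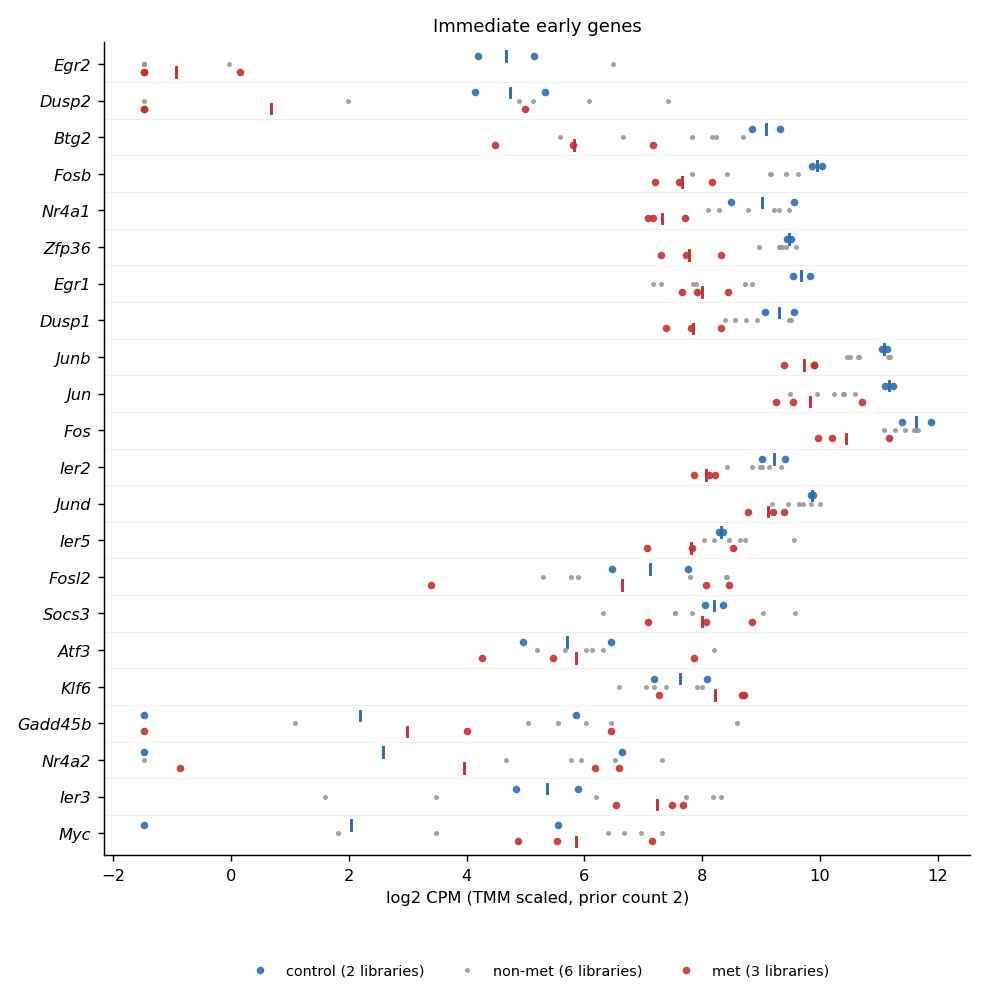
Log2 CPM (x axis, TMM scaled, prior count 2) of the 22 tested immediate early genes, with 1 point per control, met and non-met library and a bar at the mean of the control and met groups. The met points lie below both control points for *Fos*, *Fosb*, *Jun*, *Junb*, *Egr1* and *Zfp36*, and above them for *Ier3*.

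In the remaining lists the calls ranged from 0 to 3 genes, against 1.2% of all tested genes called. Of 17 arterial genes 2 rose, *Cd34* among them, and 1, *Cxcl12*, fell, 2 of 11 genes for caveolae and permeability rose, and of 17 TGF-beta and BMP genes 1 rose and 1, *Bmp4*, fell. *Aqp1*, a water channel, was at 541 and 923 CPM in the controls and 1159, 1754 and 1925 CPM in met (adjusted P = 3.16e-17 by voomLmFit, and 0.851 by limma-trend), and kept its call at 1.10 without control 1. *Lrg1*, a glycoprotein that modulates TGF-beta signals, was at 899.6 and 923 CPM against 1177, 1355 and 3764 CPM (adjusted P = 6.05e-11, and 0.814 by limma-trend), and its call was lost without control 1 (2.04) or met 3 (0.55). Of 13 mitochondrially encoded genes 2 were called higher, both with overlapping libraries. The lists of junctions (17 tested), coagulation (12), vascular tone (12) and folding in the endoplasmic reticulum (19) each held 1 call, higher, and that of chemokines and adhesion (12) held 1, *Cxcl12*, lower. Of the calls in these lists, those of *Cd34* and *Cxcl12* passed limma-trend and no other did. None of 25 proliferation genes passed, and *Mki67*, made by dividing cells, was at 113 and 21.8 CPM in the controls and 448, 42.6 and 69.0 CPM in met. None of 24 hypoxia and glycolysis genes passed, with 8 above (33.3%, against 8.43% of all tested genes) and 4 below (16.7%, against 12.3%) in every met library. *Ldha*, lactate dehydrogenase, was at 125 and 95.5 CPM against 512, 529.7 and 206 CPM (adjusted P = 0.285), and *Vegfa*, the main growth factor for vessels, at 44.1 and 50.8 CPM against 0.441, 43.8 and 0.229 CPM. None of 13 Notch genes, 14 fatty acid uptake genes or 12 heat shock genes passed voomLmFit or limma-trend.

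**Figure D5:**
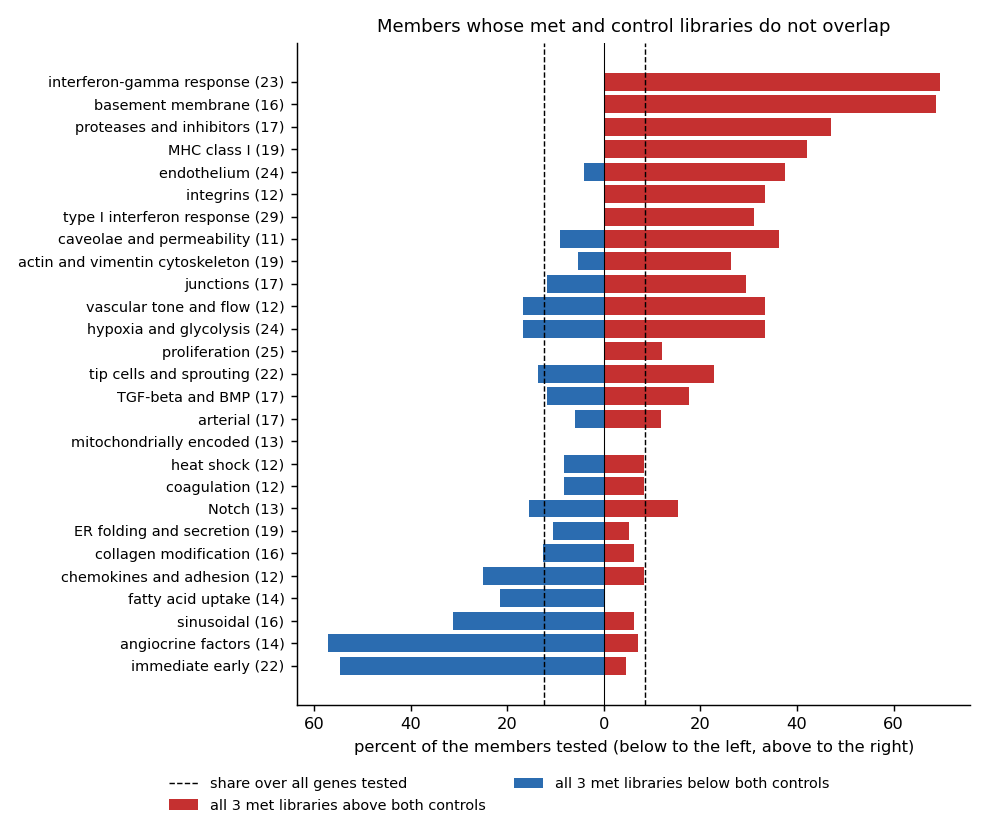
Share of the tested genes of each list (percent, x axis, number tested in brackets) whose met libraries all lay above both controls (right) or all below (left), with dashed lines at the shares over all 11948 tested genes (8.43% above and 12.3% below). Lists of other cell types are not drawn. Of the lists drawn, interferon-gamma and basement membrane have the longest bars to the right, and the angiocrine and immediate early lists the longest to the left.

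Many lower calls were genes at or below the floor of 3 reads in infiltrated marrow. In 28 of the 61 the met libraries each held 3 reads or fewer, and in 5 of the 82 higher calls both controls did. *Islr*, a secreted protein of mesenchymal cells, had 65.2 and 301 CPM against 0, 0.19 and 0 CPM, and *S1pr3*, a receptor for sphingosine-1-phosphate, 28.9 and 134 CPM against 0 (adjusted P = 0.63 and 0.874 by limma-trend). Over all tested genes, 208 had at least 10 CPM in both controls and at most 3 reads in each met library, of which 29 also had at most 3 reads in each non-met library. Only 17 showed the reverse. The imbalance stands beside the greater depth of control 1, whose part was not tested. *Itga2b*, the platelet integrin αIIb, was among the 17, with 0 reads in the controls, 29.9 and 30.6 CPM in met 2 and 3 and a higher level in met 1 (adjusted P = 0.0405, and 0.702 by limma-trend). *Islr* and *S1pr3* were not called without any 1 met library, and *Itga2b* was not without control 1 or any 1 met library.

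Summed markers of other cell types differed in level and in how far the groups overlapped. The summed level of 10 megakaryocyte and platelet genes was 0 and 31.3 CPM in the controls and 83.3 to 124 CPM in met, without overlap, and *Pf4*, their defining chemokine, had 0 reads in the controls and in met 1. The 20 granulocyte genes summed to 129 and 401 CPM in the controls and 64.8 to 204 CPM in met, with 10 at 0 in all met libraries and 8 at 0 in both controls. Of 18 tested, 1 was lower in every met library (5.56%, against 12.3% of all tested genes), and *S100a8* was at 6.55 and 90.1 CPM against 0, 0 and 12.2 CPM. The 15 mammary epithelial and tumour genes summed to 0.929 and 60.5 CPM against 11.7 to 79.2 CPM and overlapped, but 5 of the 7 tested had all met libraries above both controls (71.4%, against 8.43% of all tested genes), none called, and *Krt8* alone was at 0.244 and 0.354 CPM against 11.5, 32.6 and 4.82 CPM. The 10 T and NK cell genes were at 0 in both controls and in met 1 and 2. The 13 monocyte and macrophage genes summed to 1355 and 1313 CPM in the controls and 668 to 1373 CPM in met, with none of 6 tested above the controls in every met library and 1 below. The 9 red cell genes summed to 143 and 235 CPM in the controls and 110 to 147 CPM in met, overlapping. The part of these cells in the results above was not tested.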

How the data were processed

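The deposited values were raw counts of reads per Entrez gene, without normalisation. Per the paper and the labels, the authors prepared libraries with a SMART-Seq v4 kit, used Rsubread for alignment to mm10, and featureCounts with its own annotation for counting. Whether strand was used is not given in the sources used here. A low-input kit amplifies few molecules, so many transcripts are present in 1 library and absent from the next, and the floor of 3 reads covers counting error only. Columns were matched to samples by the labels, and groups were taken from the labelled population.

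RefSeq for GRCm38.p6 gave symbols and positions for 25275 of 27179 rows, and GENCODE for 18. Left out were 1886 unnamed rows, 1794 predicted genes and 36 genes for ribosomal RNA, leaving 23463, and filterByExpr (minimum count 10, minimum total 15) kept 11948. Counts were scaled by TMM. All 11 libraries and 3 groups entered 1 model fitted with voomLmFit and sample weights (edgeR 4.0.16, limma 3.58.1, R 4.3.3), the test the authors name, with Benjamini-Hochberg adjustment over all genes tested at 0.05. Log2 CPM used a prior count of 2. Single measures were compared by exact permutation of the 5 libraries. The procedure was tested on simulated data, where voomLmFit made some calls among unchanged genes, which limma-trend and the quasi-likelihood test did not. The voomLmFit p-values rest on standard errors from weighted libraries, which can be far below the plain spread between libraries. That of *Pecam1* was 0.015, while its log2 CPM had an SD of 0.233 in met and 0.255 in control. Some libraries share a pool of mice, and libraries of 1 pool entered as separate samples.

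Members and gene lists were chosen with earlier results of these data known. Named by rule were the sort markers, genes named in the text of the study for these libraries (*Col4a1*, *Col4a2*, *Cxcl10*, *Cxcl11* and *S100a8*, which the study had picked from the same libraries), up to 15 genes in each direction called by voomLmFit and limma-trend without overlap, up to 10 further called by voomLmFit and by quasi-likelihood or DESeq2, and up to 4 of each list. Other list members, *Cxadr*, *Igfbp4* and *Insr* were named after their values were seen. Alternatives were limma-trend, quasi-likelihood, DESeq2 1.42.0, no weights, other scalings and filters, predicted rows kept, blocks for replicate number or mouse pool, pools summed, the 5 libraries alone, and each library left out. Promoters were 300-base RefSeq windows searched over the 250 bases before the start, and *Cxcl11*, *Gbp4* and *Iigp1* were not matched.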

Additional observations from a re-analysis of the deposited data

Results flagged for a closer look

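The rows left out of the tests, which have no name or are predicted or ribosomal RNA genes, held 2.91% of the counts of the lowest met library, above both controls (1.94% and 2.87%). The other met libraries were at 3.04% and 3.46%. The difference between groups was 0.729 percentage points (exact two-sided permutation test over 10 splits, P = 0.1, the smallest it can give, and adjusted P = 0.7 over 14 measures).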

How the results depend on the processing

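The number of genes called moved with the test, the filter, the terms of the model and single libraries. Against 143 genes, limma-trend called 9, or 14 with library size and 14 with RLE scaling, quasi-likelihood 10, DESeq2 228, voomLmFit without sample weights 274, without the filter 429, with libraries of one pool and group summed 55, and with the met and control libraries only 80. Leaving out 1 library gave 36 to 293. A term for the 2 library sets, chosen after the data were seen, as were the 2 scalings of limma-trend, left 4 genes by voomLmFit and 0 by limma-trend, where 504 genes had an unadjusted P under 0.05. Replicate numbers did not pair the libraries (correlations of deviations from -0.028 to 0.028), and a replicate block left 7 genes, 3 of them shared with the 143. The share of higher calls, 57.3% by voomLmFit, was 46.3% with library size scaling, 39.9% without the filter, 74.5% with pools summed, 77.8% by limma-trend, and 27.5% (without control 1) to 80.6% (without met 3) with 1 library left out. The median change over all genes was -0.09 with TMM, -0.23 with library size, -0.17 with RLE scaling and -0.35 in limma-trend. The difference in counts left out was 0.266 to 1.19 percentage points with 1 library left out. The causes of these differences were not tested.

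Changes of sign were found for *Aplnr* (limma-trend 0.030, quasi-likelihood 0.16, DESeq2 0.11, replicate block 0.51, limma-trend with the library set term 0.49, and -1.26 to 0.32 with 1 library left out), for *Kdr* (limma-trend 0.080, quasi-likelihood 0.027, met and control libraries only 0.034, limma-trend with the set term 0.019, and -0.52 to 0.38 with 1 library left out) and for *Myh9* (limma-trend 0.21, quasi-likelihood 0.22, DESeq2 0.16, replicate block 0.16, met and control libraries only 0.16, limma-trend with library size 0.033 and RLE scaling 0.13, and -0.43 to 0.25 with 1 library left out). *B2m* was at -0.55 in limma-trend with the set term and -0.036 with library size scaling, and *Sparc* at -0.18 in voomLmFit with the set term. With the replicate block *Actb* was at 0.088, *Plxnd1* at 0.047 and *Stab1* at 0.079, and with 1 library left out they ranged from -1.16 to 0.043, from -0.63 to 0.22 and from -0.45 to 0.099, while *Stab1* was at 0.026 in limma-trend with the set term. The other comparisons of named genes with an alternative were counted without *Ctsl*, *Adamts5* and *Ephb4*. Of these comparisons 1427 stayed on the same side of the threshold, among them 29 in which a gene not called changed sign. A further 485 kept direction and lost their call, and 38 gained one.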
